A study of Mus musculus with 6 samples.

Results

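Of the 16623 genes in a single-cell table of mouse liver, 10 listed genes of the glutathione S-transferase (GST) family are described here: Gsta2, Gsta3 and Gsta4 of the alpha class, Gstm1, Gstm2 and Gstm3 of the mu class, Gstp1 of the pi class, Gstt1 of the theta class, Gstz1 of the zeta class and Gsto1 of the omega class. They were taken by name from a fixed list, which was chosen with earlier results of these data known, and all 10 were present. Livers of 3 wild-type and 3 SIRT7-/- mice, 5 to 6 months old, were digested with collagenase, and hepatocytes and nonparenchymal cells of each liver were mixed in equal numbers before droplet capture on the 10x Genomics platform. Neither genotype received a treatment by its labels, no label limits the loss of SIRT7 to a cell type, and sex and strain of these mice are not given in the sources used here. SIRT7 is a nuclear deacetylase of the sirtuin family. The question put to the GST genes was at which level each cell type and hepatocyte zone held them, and whether these levels differed between the genotypes.

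Cytosolic GSTs join the tripeptide glutathione to electrophilic compounds, which makes products of drugs, toxins and lipid peroxidation soluble and ready for export. Alpha and mu class enzymes are known as abundant proteins of the hepatocyte, and many GST genes are known targets of NRF2, the transcription factor that answers electrophiles through antioxidant response elements. Hepatocytes near the central vein are known for drug metabolism, and those near the portal vein for gluconeogenesis and the urea cycle.

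The table held 11610 cells and between 2511947 and 11069411 unique molecular identifiers (UMIs, counted RNA molecules) per mouse, and 13 cell barcodes occurred in more than 1 mouse. Values are given as CP10K, counts per 10000 UMIs of a cell, averaged over the cells of a mouse. Sirt7, the targeted gene, had 0.718, 0.512 and 0.546 CP10K in wild-type mice 1, 2 and 3 and 0.1, 0.0814 and 0.139 CP10K in SIRT7-/- mice 1, 2 and 3 over all cells, so that the genotypes did not overlap. Clustering without the GST genes gave 2963 hepatocyte-like cells in 3 clusters, each with all 10 hepatocyte markers detected. The mice filled these clusters unequally. Cluster 1, led by Hamp2, Sult3a1 and Fabp1, held 57.8%, 50.3% and 50.5% of the hepatocyte-like cells of the wild-type mice and 54.4%, 79.9% and 18.8% of those of the SIRT7-/- mice. Cluster 3, led by G6pc, Slc22a30 and Igfbp1, held 80.9% of the cells of SIRT7-/- mouse 3. Of the 186 cells of cluster 15, 153 came from wild-type mouse 2. Wild-type mouse 3 gave only 99 hepatocyte-like cells, and hemoglobin RNA reached 62.6 CP10K in wild-type mouse 1 against at most 3.52 CP10K in the other mice. The 16 secreted hepatocyte genes summed to between 369 and 730 CP10K in hepatocyte-like cells of wild-type mice and to between 241 and 356 CP10K in those of SIRT7-/- mice. Summed markers of other cells in the hepatocyte-like cells overlapped between the genotypes for Kupffer cells, with 0.473 to 2.33 CP10K in wild-type and 0.82 to 4.41 CP10K in SIRT7-/- mice and 0 of 8 markers at 0, but not for plasmacytoid dendritic cells, with 2.22 to 2.94 against 3.32 to 6.23 CP10K and 0 of 7 markers at 0. The nuclear RNA Neat1 had 23.7, 9.45 and 16.3 CP10K in hepatocyte-like cells of wild-type mice against 49.5, 23.0 and 56.3 CP10K in those of SIRT7-/- mice, and the median UMIs per hepatocyte-like cell were 3291 in SIRT7-/- mouse 3 and 1208.5 to 1727 in the other mice. The part of these differences in the GST results was not tested.

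In hepatocyte-like cells the 10 genes fell into a high pair, a middle group and a low group. Gsta3 and Gstm1 both averaged 22.7 CP10K over the 6 mice, with ranges of 15.2 to 28.5 and 12.6 to 41.1 CP10K. A UMI counts 1 molecule from its 3′ end whatever the length of the transcript, so these are levels of molecules, not scaled by length. Gstz1, an isomerase of tyrosine breakdown, came next with 6.5 CP10K and a range of 5.71 to 7.52 CP10K that touched that of no other member. Gstt1 followed with 3.05 CP10K, Gstp1 with 1.93 CP10K, Gstm3 with 1.35 CP10K, Gsto1 with 1.27 CP10K, Gsta4 with 1.12 CP10K, Gstm2 with 0.976 CP10K and Gsta2 with 0.292 CP10K, and each of these overlapped its neighbours in the range over the mice. These means pool both genotypes, and the place of Gstm3 differed between them. Its mean of 0.388 CP10K in wild-type mice was the lowest of the 10, just under that of Gsta2 at 0.392 CP10K, and its mean of 2.32 CP10K in SIRT7-/- mice lay between Gstt1 at 3.09 CP10K and Gstp1 at 2.29 CP10K. Among the 18 other genes of the family in the table, the microsomal transferase Mgst1 was as high as the first pair, with 25.0 CP10K, and Gstt3 reached 1.66 CP10K. Cluster 1 held more of the abundant members than cluster 3. Gsta3 had 26.8, 33.5 and 30.4 CP10K in cluster 1 of the wild-type mice against 12.5, 17.8 and 10.8 CP10K in cluster 3, and the same order held in the 3 SIRT7-/- mice.

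**Figure D1:**
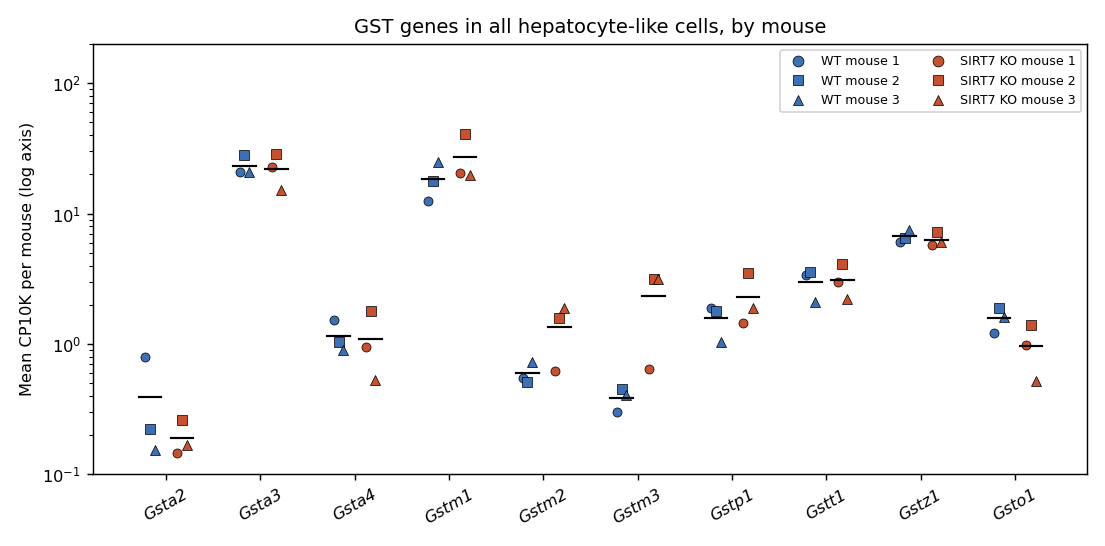
Mean CP10K of each GST gene in all hepatocyte-like cells (log axis), 1 point per mouse with blue for wild-type (WT) and orange for SIRT7-/- (SIRT7 KO), and bars at the mean of each genotype. Gsta3 and Gstm1 lie above the other genes, and Gstm3 is the only gene whose 3 SIRT7-/- points all lie above the 3 wild-type points.

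Some of these counts rest on sequence that other genes share. Of the 50-base windows in the last 500 bases of the coding transcripts in GENCODE vM21 (GRCm38), 78.0% of those of Gstp1 also occur in another gene, chiefly Gstp2, and 62.1% of those of Gsta2 occur in Gsta1 or in gene models named Gm10639 and Gm3776. For Gstm1 the share was 23.0%, with Gstm3 and 2 other models, for Gstm2 10.1%, and for Gstm3 0.887%. It was 0% for Gsta3, Gsta4, Gstt1, Gstz1 and Gsto1. Reads in shared windows could have been given to either gene or dropped, so the values of Gstp1 and Gsta2 are uncertain.

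Of the 10 members, the mu class genes Gstm3 and Gstm2 held the largest differences between the genotypes. The 3 listed mu class genes lie side by side on the minus strand of chromosome 3 (GRCm38). Gstm3 lies at 107963696 to 107969283, Gstm2 at 107981702 to 107986453 and Gstm1 at 108012255 to 108017973. Between the first pair are 12418 bases and between the second 25801 bases. Mu class transferases are known for conjugating epoxides and aromatic electrophiles. Gstm3 had 0.302, 0.455 and 0.408 CP10K in wild-type mice 1, 2 and 3, from 40, 42 and 5 UMIs. In SIRT7-/- mice 1, 2 and 3 the level was 0.64, 3.18 and 3.14 CP10K, from 90, 144 and 420 UMIs. All SIRT7-/- mice lay above all wild-type mice, with SIRT7-/- mouse 1 close to the wild-type values and the other two far above them. The difference was 2.15 ± 0.52 (SE, n = 3 and 3) on the log2 scale of CP10K plus 0.05, with an adjusted p of 0.238 in limma, which does not pass 0.05. The exact two-sided permutation test over the mice gave p = 0.1, the smallest value that 3 mice against 3 allow. Gstm2 had 0.546, 0.514 and 0.727 CP10K in wild-type against 0.617, 1.57 and 1.88 CP10K in SIRT7-/- mice. Here SIRT7-/- mouse 1 lay inside the wild-type range and the other two above it, and the log2 difference was 1 ± 0.43 (SE, n = 3 and 3; limma adjusted p = 0.632). Gstm1 had 12.6, 17.8 and 24.7 CP10K in wild-type against 20.4, 41.1 and 19.8 CP10K in SIRT7-/- mice. Its groups overlapped, with a log2 difference of 0.53 ± 0.48 (SE, n = 3 and 3; limma adjusted p = 0.879).

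Since these 3 neighbours are read against each other, the 250 bases before their RefSeq starts are shown with those of Gsta3, the alpha class gene with the highest level, each 5′ to 3′ on the gene's own strand (RefSeq, GRCm38.p6). Gstm3 is from chr3:107969175-107969424, Gstm2 from chr3:107986421-107986670, Gstm1 from chr3:108017974-108018223 (the farther of its 2 starts) and Gsta3 from chr1:21240335-21240584. Capitals mark matches, on either strand, to the antioxidant response element core TGACNNNGC, the AP-1 site TGANTCA or the dioxin response element core GCGTG.
Gstm3: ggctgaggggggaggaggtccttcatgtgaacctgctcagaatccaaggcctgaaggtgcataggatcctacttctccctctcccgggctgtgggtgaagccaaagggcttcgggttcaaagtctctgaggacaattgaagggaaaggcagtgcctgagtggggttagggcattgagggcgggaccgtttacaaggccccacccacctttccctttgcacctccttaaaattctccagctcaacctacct
Gstm2: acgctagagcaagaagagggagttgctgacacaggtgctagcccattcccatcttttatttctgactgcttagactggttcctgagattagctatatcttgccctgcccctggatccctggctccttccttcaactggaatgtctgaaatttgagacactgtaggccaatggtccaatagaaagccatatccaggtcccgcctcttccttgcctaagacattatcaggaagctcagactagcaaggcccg
Gstm1: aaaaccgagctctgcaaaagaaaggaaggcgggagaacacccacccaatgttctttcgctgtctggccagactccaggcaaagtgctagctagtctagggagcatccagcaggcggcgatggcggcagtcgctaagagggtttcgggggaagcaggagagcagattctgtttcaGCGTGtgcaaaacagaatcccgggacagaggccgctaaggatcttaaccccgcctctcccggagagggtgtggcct
Gsta3: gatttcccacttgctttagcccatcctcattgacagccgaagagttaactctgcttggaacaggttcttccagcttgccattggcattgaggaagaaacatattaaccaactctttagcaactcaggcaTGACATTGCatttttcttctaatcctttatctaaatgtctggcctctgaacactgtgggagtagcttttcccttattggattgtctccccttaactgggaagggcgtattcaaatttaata
The windows of Gstm3 and Gstm2 held none of the 3 motifs. That of Gstm1 held 1 dioxin response element core, beginning 76 bases before the start, and that of Gsta3 held TGACATTGC, beginning 121 bases before the start. Of the 9 members with a promoter in the table, which has no entry for Gsta4, the antioxidant response element core was found in Gsta3 alone, the AP-1 site in Gstp1 alone and the dioxin response element core in Gsta2, Gstm1 and Gstp1. These motifs stand in 10.2%, 6.75% and 28.2% of all 32851 promoter windows of this length. The AP-1 site reads nearly the same on both strands and does not overlap the other matches.

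No member passed the threshold in all hepatocyte-like cells. With limma, 0 of 10 members had an adjusted p under 0.05, beside 0.122% of the 9863 genes tested, and voom on summed UMIs also called 0. At an unadjusted p under 0.05, 2 of 10 members were past it, Gstm3 and Gstm2, beside 7.58% of all genes. Gstm3 was the only member with all SIRT7-/- mice above all wild-type mice, which 10.2% of all genes showed, and 0 of 10 had them all below, which 3.21% of all genes showed. The median log2 difference of the 10 members was -0.03 and that of all genes 0.16. With each mouse centred on its median over genes, the differences were 1.97 for Gstm3, 0.82 for Gstm2 and 0.35 for Gstm1.

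The other members differed by less than Gstm3 and Gstm2. Gsto1, the omega class enzyme known for reducing arsenic compounds, had 1.22, 1.9 and 1.6 CP10K in wild-type against 0.985, 1.41 and 0.519 CP10K in SIRT7-/- mice. Its log2 difference was -0.75 ± 0.42 (SE, n = 3 and 3; limma adjusted p = 0.726). Gsta2 had 0.798, 0.222 and 0.155 CP10K in wild-type against 0.147, 0.261 and 0.168 CP10K in SIRT7-/- mice. Only wild-type mouse 1 stood apart, with 110 of the 180 UMIs of this gene, and its log2 difference of -0.61 ± 0.51 (SE, n = 3 and 3; limma adjusted p = 0.864) became 0.01 without that mouse. Gstp1, with 1.88, 1.8 and 1.04 CP10K against 1.46, 3.53 and 1.88 CP10K, differed by 0.47 ± 0.43 (SE, n = 3 and 3; limma adjusted p = 0.879) on the log2 scale. The intervals of the remaining 4 included 0 and ran from -1.08 to 0.86 for Gsta3, from -1.14 to 0.73 for Gsta4, which acts on the lipid peroxidation product 4-hydroxynonenal, from -0.86 to 0.92 for Gstt1 and from -0.95 to 0.78 for Gstz1.

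**Figure D2:**
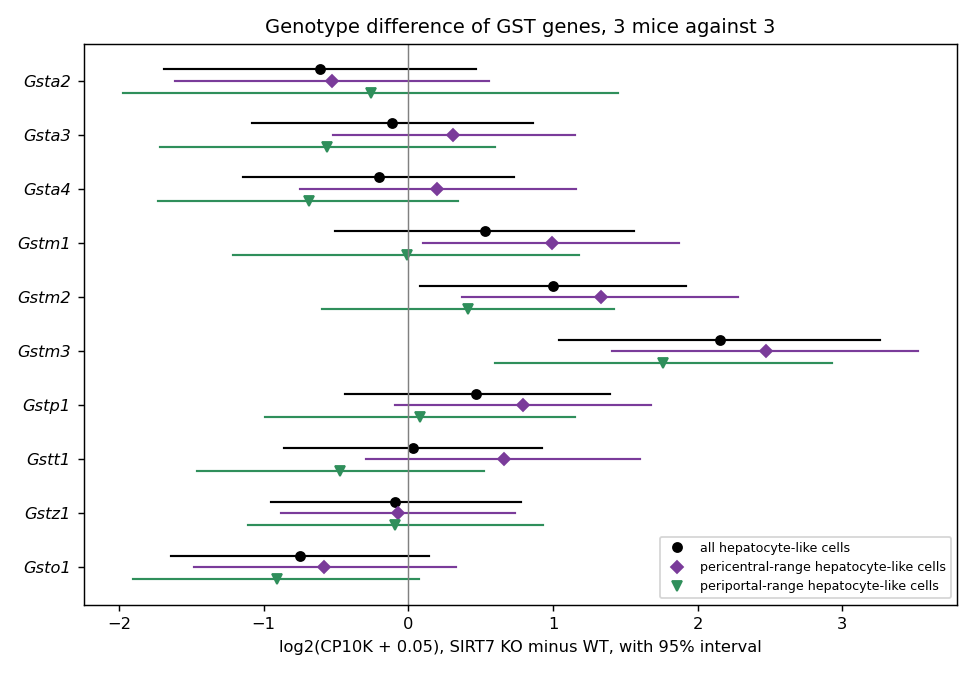
Difference between SIRT7-/- and wild-type mice for each GST gene on the log2(CP10K + 0.05) scale, as the limma estimate with its 95% interval from 3 mice against 3, for all, pericentral-range and periportal-range hepatocyte-like cells. Gstm3 lies at 2.15, 2.47 and 1.76, and its 3 intervals lie above 0, as do those of Gstm2 in all and pericentral-range cells and of Gstm1 in pericentral-range cells, none of which passed the adjusted threshold.

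Hepatocyte-like cells were placed along the lobule by landmark genes that hold no GST gene, as the share of 9 pericentral landmarks against 10 periportal landmarks, and divided at the median with mice weighted equally. Of 19 landmarks left out of the score in turn, 18 differed between the ranges in the direction of their zone, with Glul, the glutamine synthetase of the central vein, 2.24 higher on the log2 scale in the pericentral range and Sds 2.6 lower (log2 difference -2.60). These are ranges of a score and not cell types, and 323 of the 2963 cells lay within 0.05 of the dividing share of 0.488. The pericentral range took between 32.9% and 71.8% of the hepatocyte-like cells of a wild-type mouse and between 41.2% and 56.9% of those of a SIRT7-/- mouse. It held 51.8% of cluster 1, 35% of cluster 3 and 78.5% of cluster 15.

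Gstm3 and Gstm2 were the members with the clearest zone difference. Within each mouse, Gstm3 was higher in the pericentral than in the periportal range in 6 of 6 mice, by 0.64, 1.04 and 1.17 in the wild-type and by 1.80, 1.30 and 1.88 in the SIRT7-/- mice on the log2 scale. Gstm2 was higher there in 6 of 6 mice as well, by 0.13 to 1.87 with a mean of 1.11 ± 0.62 (SD, n = 6). Within cluster 1 alone Gstm2 was higher in the pericentral range in 6 of 6 mice and Gstm3 in 5 of 6, and within cluster 3 alone in 6 of 6 and 5 of 6 mice. Wild-type mouse 3 had few UMIs of Gstm3, so its value of 1.17 and its part in these counts are uncertain. Gstm1 and Gstp1 were each higher in 5 of 6 mice, with means of 0.63 ± 0.66 (SD, n = 6) and 0.58 ± 0.69 (SD, n = 6). Gsta3 was higher in 4 of 6 mice (mean log2 difference 0.39 ± 0.55, SD, n = 6). Gstz1 hardly differed between the zones, with a mean of 0.06 ± 0.06 (SD, n = 6) and a range of -0.02 to 0.14. Gsta4, Gstt1 and Gsto1 were higher in the pericentral range in 2, 4 and 3 of 6 mice and averaged 0.13, -0.01 and 0.02. Gsta2 was higher in 4 of 6 mice, and its mean of 0.62 ± 1.14 (SD, n = 6) rested on wild-type mouse 3, which had 2 UMIs of it. These levels are a description, since the zones were divided in the same cells.

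**Figure D3:**
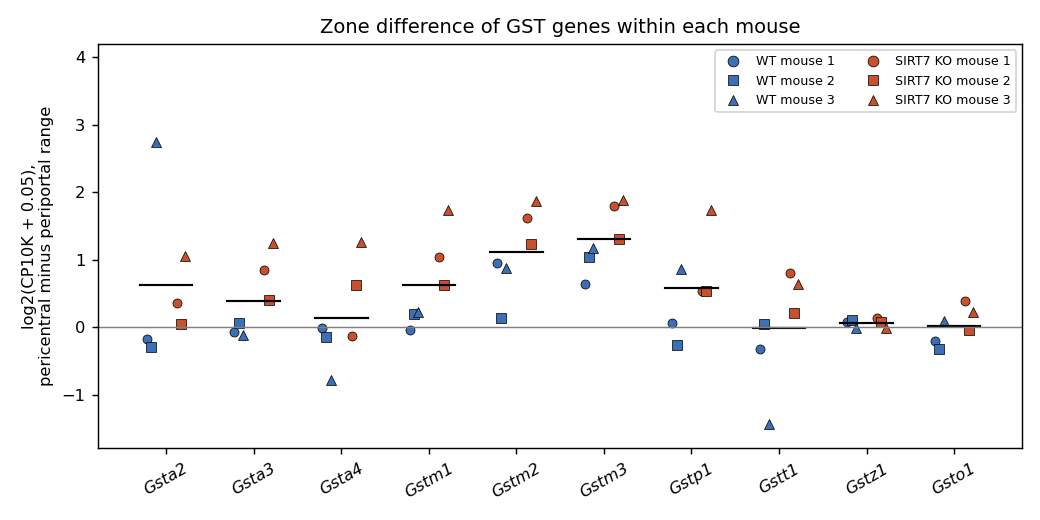
Log2(CP10K + 0.05) of each GST gene in pericentral-range minus periportal-range hepatocyte-like cells, 1 point per mouse, with bars at the mean over 6 mice. All points of Gstm3 and Gstm2 lie above 0, and the points of Gstz1 lie between -0.02 and 0.14.

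In pericentral-range cells the 3 listed mu class genes had SIRT7-/- mice above wild-type mice without overlap. Of the mu class genes outside the list, Gstm5 showed the same order, with a log2 difference of 0.74. Gstm4, Gstm6 and Gstm7 overlapped between the genotypes, with log2 differences of 0.29, 0.04 and -0.03. Gstm3 had 0.413, 0.541 and 0.563 CP10K in wild-type against 1.12, 4.29 and 5.53 CP10K in SIRT7-/- mice, a log2 difference of 2.47 ± 0.50 (SE, n = 3 and 3) with an adjusted p of 0.0702 in limma. Gstm2 had 0.83, 0.528 and 0.931 CP10K against 1.04, 2.1 and 3.32 CP10K, a log2 difference of 1.33 ± 0.46 (SE, n = 3 and 3; limma adjusted p = 0.56). Gstm1 had 12.3, 18.4 and 26.5 CP10K against 29.0, 48.4 and 33.6 CP10K, a log2 difference of 0.99 ± 0.42 (SE, n = 3 and 3; limma adjusted p = 0.783). By limma 0 of 10 members passed the adjusted threshold, beside 0.124% of the 9706 genes, and 3 of 10 had an unadjusted p under 0.05, beside 5.86% of all genes. Those 3 were also the members without overlap, a pattern that 6.57% of all genes showed with the SIRT7-/- mice above and 3.66% with them below. Gstm3 passed the adjusted threshold without wild-type mouse 2 (adjusted p = 0.00648), without SIRT7-/- mouse 1 (adjusted p = 0.00345), and in the outermost pericentral cells by landmark share (adjusted p = 0.0184). Over its 21 alternatives here its limma adjusted p ran from 0.00345 to 1.

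In periportal-range cells Gstm3 had 0.247, 0.237 and 0.222 CP10K in wild-type mice, from 18, 7 and 1 UMIs, against 0.286, 1.72 and 1.47 CP10K in the SIRT7-/- mice. The genotypes did not overlap, and the log2 difference was 1.76 ± 0.56 (SE, n = 3 and 3; limma adjusted p = 0.286). Without SIRT7-/- mouse 1 it was 2.52, past the threshold with an adjusted p of 0.0313 in limma. Gstm2 and Gstm1 overlapped here, with log2 differences of 0.41 ± 0.49 and -0.01 ± 0.57 (SE, n = 3 and 3). The median over all genes was 0.26 here, and centred on it the differences were 1.49 for Gstm3, 0.13 for Gstm2 and -0.29 for Gstm1. By limma 0 of 10 members passed the adjusted threshold, beside 0.131% of the 9887 genes, and 1 of 10 had an unadjusted p under 0.05, beside 10.2% of all genes. Gstm3 was also the 1 member of 10 without overlap, which 13.3% of all genes showed with the SIRT7-/- mice above, and 0 members had them below, beside 3.32%.

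The difference between the genotypes was compared between the zones within each mouse. The pericentral difference exceeded the periportal one by 1.13 ± 0.52 for Gstt1, by 1 ± 0.47 for Gstm1 and by 0.92 ± 0.46 for Gstm2 (SE on the log2 scale, n = 3 and 3). The excess was 0.90 ± 0.52 for Gsta4, 0.87 ± 0.44 for Gsta3, 0.71 ± 0.54 for Gstp1 and 0.70 ± 0.44 for Gstm3. For Gsto1, Gstz1 and Gsta2 it was 0.34 ± 0.43, 0.02 ± 0.41 and -0.27 ± 0.82. In limma the adjusted p of the 10 members ran from 0.613 to 0.986. Of the members 0 of 10 passed the adjusted threshold, beside 0% of 9860 genes, and 0 of 10 had an unadjusted p under 0.05, beside 7.09% of all genes. A zone-specific genotype difference was therefore not detectable for any member with 3 mice against 3.

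The 2 large clusters were also compared apart, since they hold different shares of each mouse. In cluster 1 alone Gstm3 had 0.349, 0.385 and 0.334 CP10K in wild-type against 0.96, 3.74 and 6.57 CP10K in SIRT7-/- mice, without overlap, and the log2 difference was 2.86 (limma adjusted p = 0.0698). In cluster 3 alone it had 0.232, 0.553 and 0.515 CP10K against 0.244, 0.966 and 2.34 CP10K, with SIRT7-/- mouse 1 inside the wild-type range, and the log2 difference was 0.96 (limma adjusted p = 0.635). Gstm1 differed by 1.05 in cluster 1 and by -0.36 in cluster 3, so that its direction turned between them. Its 3 SIRT7-/- values in cluster 1, 32.7, 49.0 and 65.6 CP10K, overlapped with 15.8, 20.1 and 36.9 CP10K in the wild-type mice. Whether the genotype difference of Gstm1 differed between the clusters was not tested. Gstm2 differed by 1.37 in cluster 1 and by 0.35 in cluster 3. With both clusters weighted equally in each mouse, the log2 differences were 2.13 for Gstm3, 0.97 for Gstm2 and 0.74 for Gstm1, and 0 members passed the adjusted threshold.

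**Figure D4:**
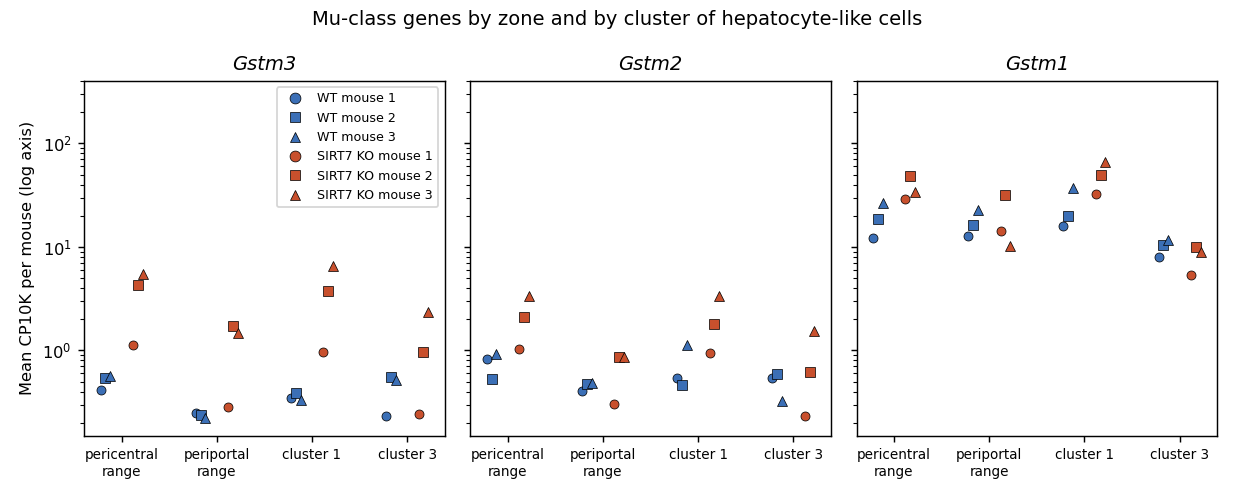
Mean CP10K per mouse (log axis) of Gstm3, Gstm2 and Gstm1 in pericentral-range and periportal-range cells and in clusters 1 and 3 of the hepatocyte-like cells, blue for wild-type (WT) and orange for SIRT7-/- (SIRT7 KO). In cluster 1 the SIRT7-/- values of Gstm3 are 0.96, 3.74 and 6.57 CP10K, all above the wild-type values, and in cluster 3 SIRT7-/- mouse 1 lies among the wild-type mice.

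The genes whose pattern over the 12 mouse-by-zone means of hepatocyte-like cells was most like a member were found among the 3212 genes averaging at least 0.5 CP10K. These correlations share mice, libraries and depth and are a description. Gstm2 and Gstm3 followed each other (Pearson's r = 0.92), and both were closest to Ube2s, Aldh3a2 and 1 further gene each, Cebpg (r = 0.79) for Gstm2 and Ifi27 (r = 0.88) for Gstm3. Aldh3a2, a fatty aldehyde dehydrogenase, reached r = 0.81 with Gstm2 and r = 0.89 with Gstm3, and Ube2s, a ubiquitin-conjugating enzyme, r = 0.86 with each. Gsta3 was closest to the sulfurtransferase Tst (r = 0.95) and to the aldo-keto reductases Akr1c12 (r = 0.94) and Akr1c6 (r = 0.92). Gstm1 was closest to Capzb (r = 0.92), Aprt (r = 0.92) and Pebp1 (r = 0.89), and Gstp1 to Alad (r = 0.93), Cbr1 (r = 0.9) and Tceal8 (r = 0.9). For Gstt1 these genes were Spr (r = 0.97) and Usmg5 (r = 0.96), for Gsta4 Cox6b1 (r = 0.94) and Lap3 (r = 0.93), for Gstz1 Coa5, Psmc1 and Hnrnpk (r = 0.93 each), and for Gsto1 Ak3, Atp5g3 and Hpgd (r = 0.92 each).

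The other genes of glutathione chemistry are given by lists. In all hepatocyte-like cells 0 of 26 tested genes of the glutathione pathway, 0 of 21 NRF2 targets, 0 of 19 regulators and 0 of 13 further genes of the family passed the adjusted threshold in limma. At an unadjusted p under 0.05 the counts were 2, 2, 2 and 2, beside 7.58% of all genes, and the median log2 differences were -0.05, 0.13, 0.25 and 0.05 beside 0.16 for all genes. Within the glutathione pathway, Cth, which makes cysteine for glutathione, had 15.4, 7.56 and 8.34 CP10K in wild-type against 4.36, 6.16 and 3.21 CP10K in SIRT7-/- mice, without overlap (log2 difference -1.16 ± 0.45, SE, n = 3 and 3; limma adjusted p = 0.594). The glutathione peroxidase Gpx1 had a log2 difference of -0.91 ± 0.49 and Ggct, an enzyme of glutathione breakdown, one of 0.86 ± 0.39 (SE, n = 3 and 3). Among the NRF2 targets the carboxylesterase Ces1g had 1.74, 3.17 and 1.62 CP10K against 0.556, 0.399 and 0.905 CP10K (log2 difference -1.74 ± 0.42, SE, n = 3 and 3; limma adjusted p = 0.232). Malic enzyme Me1 and the autophagy adaptor Sqstm1 had log2 differences of 1.26 ± 0.49 and 0.76 ± 0.39 (SE, n = 3 and 3). Among the regulators Nfe2l2, which encodes NRF2, had 0.841, 0.685 and 0.872 CP10K in wild-type against 1.4, 1.42 and 3.52 CP10K in SIRT7-/- mice, without overlap (log2 difference 1.22 ± 0.42, SE, n = 3 and 3; limma adjusted p = 0.546). The xenobiotic receptor Nr1i2 had a log2 difference of 1.06 ± 0.40 and the fatty acid receptor Ppara one of 0.90 ± 0.47 (SE, n = 3 and 3).

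In the zones 0 genes of these lists passed the adjusted threshold in limma either. In pericentral-range cells 1 and 2 of 26 glutathione pathway genes, 2 and 2 of 21 NRF2 targets and 1 and 0 of 18 regulators were higher and lower at an unadjusted p under 0.05, beside 5.86% of all genes in either direction. In periportal-range cells these counts were 0 and 1 of 26, 0 and 1 of 21 and 4 and 0 of 19, beside 10.2% of all genes. Genes named in these ranges alone had log2 differences of -0.75 for the exporter Abcc3, -1.06 for the carboxylesterase Ces2a and 0.74 for Arnt in the pericentral range. In the periportal range these differences were 0.98 for Gclc, the rate-limiting enzyme of glutathione synthesis, 1.95 for the NRF2 partner Mafg and 1.18 for the dioxin receptor Ahr. The same genes had 0.10, -0.01 and -0.14 in the pericentral range. When the genotype difference was compared between the zones, 0% of 9860 genes passed the adjusted threshold.

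Among the other family genes, Gstt3, a theta class gene next to Gstt1, had 2.4, 2.32 and 2.23 CP10K in hepatocyte-like cells of wild-type mice and 0.739, 1.3 and 0.978 CP10K in those of SIRT7-/- mice. All SIRT7-/- mice lay below all wild-type mice, and the log2 difference was -1.20 ± 0.37 (SE, n = 3 and 3; limma adjusted p = 0.428). Its neighbour Gstt1 had 3.4, 3.54 and 2.09 CP10K against 2.97, 4.11 and 2.2 CP10K, with a log2 difference of 0.03 ± 0.42 (SE, n = 3 and 3). Of the windows at the 3′ end of Gstt3, 26.8% also occur in other genes. Mgst1 overlapped, with a log2 difference of -0.78 ± 0.49 (SE, n = 3 and 3; limma adjusted p = 0.78).

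Nonparenchymal cells held RNA of hepatocyte genes, called carried-over RNA here, and its source was not tested. In 684 of 8647 nonparenchymal cells the secreted hepatocyte genes exceeded the 10th percentile of the hepatocyte-like cells of the same mouse. The summed level of 16 secreted hepatocyte genes in a class, set against that in hepatocyte-like cells of the same mouse, was 4.38% to 21.4% in Kupffer-like, 8.22% to 25.6% in monocyte-like, 9.38% to 36.8% in T-like, 19.2% to 52.9% in B-like, 3.41% to 10.4% in plasma-like and 11.8% to 38.1% in endothelial-like cells. This share times the hepatocyte level of a gene gives the level that carried-over RNA alone would leave. The 19 zone landmarks, genes of hepatocytes, reached medians between 0.66 times that level in plasma-like and 1.0 times in endothelial-like cells. Single landmarks ran up to 5.68 times in Kupffer-like and 1.99 times in monocyte-like cells. Gsta3 stood at this background in each of these 6 classes, with medians over the mice between 0.809 and 1.09 times the carried-over level, as did Gstz1 with 0.762 to 0.967, Gstt1 with 0.674 to 1.12 and Gstm1 with 0.77 to 1.29. The levels of Gsta3, Gstz1 and Gstt1 in these cells are not read as expression. Gstm1 was above the carried-over level in 5 of 5 mice in endothelial-like cells, by 1.09 to 2.3 times, where single landmarks reached 2.02 times.

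Gsto1 stood above that level in Kupffer-like and monocyte-like cells. The Kupffer-like class included a cluster of 445 cells led over all other cells by Retnla, H2-Eb1 and Cx3cr1, and is not taken as resident macrophages alone. In Kupffer-like cells Gsto1 had 1.39, 1.17 and 0.929 CP10K in wild-type against 0.562, 0.467 and 0.79 CP10K in SIRT7-/- mice, from 605 UMIs in all. These levels were between 3.62 and 8.39 times the carried-over level, with a median of 4.73, and over 2 times it in 6 of 6 mice. The highest median of a single landmark in Kupffer-like cells, 5.68 times, lay above that of Gsto1. In monocyte-like cells the median was 3.11 and the range 2.48 to 8.08, again over 2 times in 6 of 6 mice. The median of Gsto1 in T-like, B-like, plasma-like and endothelial-like cells lay between 1.1 and 1.46. Gstp1 stood moderately above its carried-over level in every mouse of all 6 classes, with medians from 1.74 in B-like to 2.73 in plasma-like cells. Reads of Gstp2 may be among these counts. The highest median of a single landmark was 5.68 times in Kupffer-like cells, above every median of Gstp1. It was 2.02 in endothelial-like, 1.99 in monocyte-like, 1.84 in plasma-like, 1.5 in T-like and 1.39 in B-like cells. In T-like cells Gstp1 had 1.77, 1.01 and 0.7 CP10K in wild-type against 0.782 and 0.839 CP10K in SIRT7-/- mice 1 and 2, at a median of 2.53 times the carried-over level.

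Gstm2 was above its carried-over level in endothelial-like cells of the wild-type mice. It had 1.66, 0.805 and 0.791 CP10K there, from 29, 17 and 10 UMIs, which is 10.4, 6.34 and 3.75 times that level. In SIRT7-/- mice 1 and 2 it had 0.219 and 0.405 CP10K, from 6 and 3 UMIs, and 0.931 and 2.19 times that level. The wild-type mice lay above both SIRT7-/- mice, with a log2 difference of -1.61 ± 0.49 (SE, n = 3 and 2; limma adjusted p = 0.211), opposite in sign to that in hepatocyte-like cells, and the difference between these cell types was not tested. SIRT7-/- mouse 3 gave 8 endothelial-like cells, under the minimum of 20, and was not used in the fit; its 3 UMIs of Gstm2 there came to 1.4 CP10K, inside the wild-type range. With carried-over RNA subtracted, the log2 difference of Gstm2 was -2.94 (limma adjusted p = 0.127) and that of Gstm1 -2.22 (limma adjusted p = 0.0356). Gstm1 was the 1 member then past the threshold, which 19 of 9941 genes passed in that fit. It lay little above the carried-over level in the mouse nearest to that level, so its difference after subtraction depends on a small remainder. Gstm2 in SIRT7-/- mouse 1 lay below its carried-over level, at 0.931 times it, so nothing was left there after the subtraction. The value of -2.94 for Gstm2 therefore depends on the constant added before the log, and is not read as a larger genotype difference than -1.61. Gsta2, Gsta4 and Gstm3 had few UMIs outside hepatocyte-like cells, between 2 and 76 per class for each of these genes in the 6 classes, and gave no class with every mouse above the carried-over level.

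**Figure D5:**
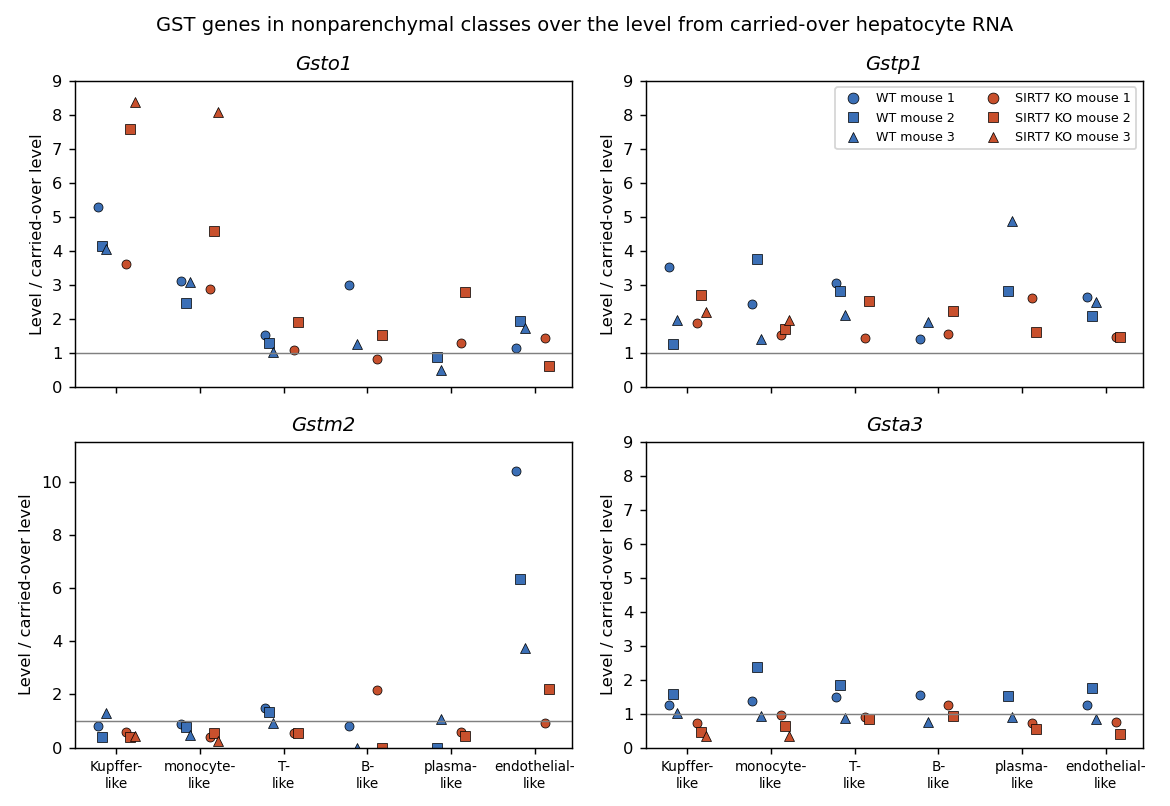
Level of Gsto1, Gstp1, Gstm2 and Gsta3 in 6 nonparenchymal classes divided by the level that carried-over hepatocyte RNA would give, 1 point per mouse with at least 20 cells, with a line at 1. Gsto1 lies at 3.62 to 8.39 in Kupffer-like cells, Gstm2 at 3.75 to 10.4 in endothelial-like cells of wild-type mice, and Gsta3 lies about 1.

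The genotypes were compared in these 6 classes, with 3 mice against 3 in Kupffer-like and monocyte-like cells, 3 against 2 in T-like and endothelial-like cells and 2 against 2 in B-like and plasma-like cells. By limma 0 members passed the adjusted threshold in any of them, beside 0.221% of all genes in Kupffer-like, 0.0211% in monocyte-like, 0.41% in T-like, 0.29% in endothelial-like, 0.0215% in B-like and 0.0652% in plasma-like cells. At an unadjusted p under 0.05 there were 4 of 10 members in Kupffer-like cells beside 10.7% of all genes, 1 of 10 in monocyte-like cells beside 6.44%, 2 of 10 in T-like cells beside 8.13%, 3 of 10 in endothelial-like cells beside 7.25%, 0 of 10 in B-like cells beside 3.68% and 2 of 8 tested in plasma-like cells beside 6.59%. All of these members were lower in SIRT7-/- mice. The secreted hepatocyte genes summed to 143, 91.4 and 82.0 CP10K in monocyte-like cells of wild-type mice against 91.2, 19.8 and 81.6 CP10K in those of SIRT7-/- mice, to 202, 145 and 116 against 131 and 22.6 CP10K in T-like cells and to 57.6 and 33.9 against 37.1 and 8.2 CP10K in plasma-like cells, and their part in these differences was not tested. Voom on summed UMIs called 0 members in each class. All SIRT7-/- mice lay below all wild-type mice for 1 of 10 members in monocyte-like cells beside 7.15% of all genes, for 3 of 10 in T-like cells beside 12.1%, for 2 of 10 in endothelial-like cells beside 13%, for 1 of 10 in B-like cells beside 13% and for 4 of 8 in plasma-like cells beside 11.1%. They lay above for 2 of 10 members in B-like cells beside 16.1% of all genes, and for 0 members in the monocyte-like, T-like, endothelial-like and plasma-like cells, beside 4.19%, 10.1%, 9.59% and 25.5%.

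In Kupffer-like cells the 4 members were Gsta3, Gstm1, Gstz1 and Gsto1, each with all SIRT7-/- mice below all wild-type mice, which 9.81% of all genes showed, and 0 members had them above, beside 7.09%. The log2 differences were -1.83 ± 0.37 for Gstz1, -2.03 ± 0.51 for Gsta3, -1.25 ± 0.33 for Gstm1 and -0.90 ± 0.27 for Gsto1 (SE, n = 3 and 3; limma adjusted p = 0.0848, 0.205, 0.192 and 0.234). The secreted hepatocyte genes summed to 140, 109 and 52.8 CP10K in Kupffer-like cells of wild-type mice and to 56.0, 10.5 and 59.9 CP10K in those of SIRT7-/- mice, lower on average in the latter but with overlap. Gsta3, Gstm1 and Gstz1 stood at the carried-over level there. With that level subtracted, their log2 differences were -3.68, -3.04 and -2.29 (limma adjusted p = 0.296, 0.693 and 0.448). Remainders below 0 were set to 0, and for genes at the carried-over level the log2 difference then depends on the 0.05 added. These values are therefore not read as larger genotype differences. Gsto1, which stood above the carried-over level, differed by -0.80 after the subtraction (limma adjusted p = 0.494). In the endothelial-like cells 2 of 29 tested genes of the glutathione pathway list passed the threshold, beside 0.29% of all genes, chosen here after their values were seen: Cth (log2 difference -1.94 ± 0.36, SE, n = 3 and 2; limma adjusted p = 0.00306) and Gpx1 (log2 difference -1.42 ± 0.34, SE, n = 3 and 2; limma adjusted p = 0.0475). The secreted hepatocyte genes there summed to 191, 180 and 107 CP10K in wild-type against 136 and 28.3 CP10K in SIRT7-/- mice 1 and 2, and their part in the result was not tested.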

How the data were processed

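Per the labels and the study's methods, the authors aligned reads to mm10 with Cell Ranger 6.0.0, removed cells with under 500 genes or a mitochondrial share over 5%, brought every cell to a sum of 10000 and, after adding 1, took the natural log; the deposited values are these natural log values (ln(CP10K + 1)). Undoing the log gave CP10K, and the smallest step within a cell served to recover UMIs (all 12961041 values above 0 whole within 0.02), from 2511947 to 11069411 per mouse. No sample column was left unused. Cells were mapped to mice by barcode ending, and 0 stayed unmapped.

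Cells were clustered with scanpy 1.11.5 and leidenalg 0.10.2 (1000 variable genes, none of the GST family, 50 components, 3 neighbors per mouse, resolution 1) and classes named from markers; 254 cells stayed unnamed. The mouse is the replicate. Mean CP10K per mouse plus 0.05 was compared as log2, SIRT7-/- minus wild-type, by limma 3.58.1 (R 4.3.3; trend, robust; two-sided) over all genes averaging at least 0.05 CP10K, in classes with at least 20 cells in at least 2 mice per genotype, with p-values adjusted by Benjamini and Hochberg's method across every gene tested in the class, and a threshold of 0.05. Whether the mice of a genotype differ in litter or day is not given in the sources used here. Named were all members, other family genes by level, the 3 genes of the glutathione pathway, NRF2 target and regulator lists with the largest change in each hepatocyte comparison (mean of at least 0.5 CP10K), and the 3 genes most like each member, of which 1 each for Gstt1 and Gsta4 is not reported here. The members, lists and tests were chosen with earlier results of these data known. Alternatives were the pseudocount, filter, scaling, voom, clustering, doublets, hemoglobin, zone division, each mouse left out and the replicate block; comparisons by cluster, without cells holding markers of a second class and with carried-over RNA subtracted were added after the data were seen. The limma script was tested on simulated data. Positions are from GENCODE vM21 (GRCm38, the same build as mm10) and promoters from RefSeq (GRCm38.p6), matched by symbol for 9 of 10 members.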

Additional observations from a re-analysis of the deposited data

How the results depend on the processing

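No member passed the threshold as reported, and the alternatives moved that count as follows. In all hepatocyte-like cells leaving out each mouse in turn gave between 0 and 1 members called, the 1 being Gstm3 without SIRT7-/- mouse 1 (adjusted p = 0.0125 in limma). In pericentral-range cells leaving out each mouse gave 0 to 1, the replicate block 1 (adjusted p = 0.0262 in limma) and the outermost cells by landmark share 1, each time Gstm3. In periportal-range cells leaving out each mouse gave 0 to 1. In Kupffer-like cells the count was 3 on the mean of deposited natural-log values, 0 to 3 on leaving out each mouse, 1 with the replicate block and 1 without cells holding markers of a second class. In T-like cells it was 1 on the mean of natural-log values, 0 to 4 on leaving out each mouse and 2 without cells holding markers of a second class. In endothelial-like cells it was 1 with no filter, 0 to 2 on leaving out each mouse and 1 with the carried-over level subtracted. In monocyte-like cells it was 0 to 2 on leaving out each mouse and 1 with the replicate block. In plasma-like cells it was 1 on the mean of natural-log values and 0 to 1 on leaving out each mouse. The highest count on leaving out a mouse came without SIRT7-/- mouse 1 in each of these except plasma-like cells, where it came without wild-type mouse 3, and the pericentral count was also 1 without wild-type mouse 2. These alternatives also called more genes of all kinds. Without SIRT7-/- mouse 1 they numbered 103 of 9948 in Kupffer-like, 327 of 9995 in T-like, 256 of 10638 in endothelial-like and 149 of 9429 in monocyte-like cells, against 22, 41, 31 and 2 as reported, and without wild-type mouse 3 they numbered 879 of 7523 in plasma-like cells against 5. On natural-log values they numbered 57 in Kupffer-like, 162 in T-like and 60 in plasma-like cells, with the replicate block 129 in Kupffer-like and 73 in monocyte-like cells, without cells holding markers of a second class 40 in Kupffer-like and 238 in T-like cells, and with no filter 88 in endothelial-like cells. Where 1 mouse was left in a genotype it is assumed to vary like the others, and the cause was not tested. Correlations of the deviations of same-numbered mice were -0.03, 0.13 and 0.01 for pairs 1, 2 and 3 in all hepatocyte-like cells, 0.01, 0.16 and 0.11 in the pericentral range and -0.08, -0.06 and -0.14 in the periportal range. In none of these were all pairs over 0.1, so the mice are not taken as paired. In all hepatocyte-like cells and in the zone comparison the replicate block left 0 members called.

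Of 98 differences of members, 40 had another sign or 0 under at least 1 alternative, most of them smaller than their SE as reported, such as Gsta3 in all hepatocyte-like cells (-0.8 to 0.29) and Gstm1 in the periportal range (-0.48 to 0.34). Of those at least as large as their SE, directions turned for Gstm1 (-0.36 on the log2 scale) and Gstp1 (-0.11) in cluster 3 alone, and for Gsta4 in B-like cells on natural-log values (-0.03) and without cells holding markers of a second class (-0.75). On leaving out each mouse, Gsta2 in all hepatocyte-like cells ran from -1.02 to 0.01, Gsta4 in B-like cells from -0.71 to 3.91, Gstm1 and Gstt1 in T-like cells from -0.99 to 0.24 and from -1.52 to 0.38, and Gsta4, Gstm1 and Gstt1 in endothelial-like cells from -2.73 to 0.5, from -0.74 to 0.03 and from -3.79 to 0.43. The turned values came without wild-type mouse 1 for Gsta2, without wild-type mouse 3 in B-like cells and without SIRT7-/- mouse 2 in T-like and endothelial-like cells. Gstm3 kept its sign in 22 of 22 alternatives in all hepatocyte-like cells, between 0.67 and 2.89, and in 21 of 21 in each zone. Genes called among all genes numbered 12 in all hepatocyte-like cells as reported and 0 to 46 over the alternatives, 12 and 0 to 63 in the pericentral range, and 13 and 0 to 51 in the periportal range. Scrublet marked 46 of 11610 cells, too few to count as having worked. Depth limits Gsta2 and Gstm3, which had 2 and 5 UMIs in hepatocyte-like cells of wild-type mouse 3. Levels across classes and zones moved by less than the spread between mice at clustering resolution 0.35, without the cells Scrublet marked and in the outermost cells of each range.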

Other observations

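Some other genes of the GST family had higher levels in nonparenchymal classes than in hepatocyte-like cells. Hpgds, a sigma class GST that makes prostaglandin D2, had between 0.305 and 0.693 CP10K in Kupffer-like cells of the 6 mice, from 542 UMIs, and between 0 and 0.0276 CP10K in hepatocyte-like cells. Ltc4s, the leukotriene C4 synthase, had 1.24, 1.35 and 1.25 CP10K in Kupffer-like cells of wild-type mice and 0.64, 0.296 and 1.01 CP10K in those of SIRT7-/- mice, and a mean of 0.62 CP10K in endothelial-like cells of 5 mice. Hepatocyte-like cells held 10 UMIs of it in all. Gstp2, the near copy of Gstp1, had 118 UMIs in Kupffer-like cells, with a mean of 0.142 CP10K, and 1 UMI in the 2963 hepatocyte-like cells. The reads that Gstp1 and Gstp2 share leave its level uncertain.

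Mgst2 had a mean of 0.417 CP10K in neutrophil-like cells of 3 mice, 0.189 CP10K in plasma-like cells of 4 mice and 0.184 CP10K in T-like cells of 5 mice, from 59, 33 and 60 UMIs, against 4 UMIs in hepatocyte-like cells. Mgst3 in monocyte-like cells stood at a median of 3.5 times the carried-over level, over 2 times in 5 of 6 mice, and Gstp3 in T-like cells at 2.9 times, over 2 times in 4 of 5 mice. These are levels of classes named from markers and are given without a test.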
